A study of Homo sapiens with 29 samples.

Results

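The AXL Y634F line is a derivative of PC9, an established lung adenocarcinoma cell line with an activating EGFR mutation, in which the receptor tyrosine kinase AXL carried phenylalanine in place of the tyrosine Y634. The line was chosen by its genotype label, which gave 3 libraries of the 29 in the series, and it was compared with the 18 libraries of 6 other lines made in the same way. These carried AXL wild type (WT) or a phenylalanine at 1 other tyrosine (Y643F, Y698F, Y726F, Y750F and Y821F). In all 7 lines the endogenous AXL gene had first been disrupted by CRISPR-Cas9 in its kinase domain, and AXL was then put back with a lentiviral vector bearing a puromycin resistance marker, after which transduced cells were sorted by GFP and kept as populations. Dishes seeded with 300000 cells of a line were left untreated (UT) or exposed for 24 h to erlotinib at 1 μM, either alone (E) or joined by 300 ng/mL of an AXL-activating antibody, AF154 (EA), and each line and treatment gave 1 polyA RNA library. A line given an AXL form without kinase activity (kinase-dead) had a library in each treatment too. So had the parental PC9 cells (neither knocked out nor transduced). Both serve below only as further reference values outside the 6 lines. The labels call the kinase-dead and the WT line knock-ins, while the study describes both as transduced after the same knockout. By the study's account only a minority of the transduced cells expressed AXL, so each population held many cells lacking it. The 3 libraries of a line, 1 for each treatment, are not replicates, and the mutation, the transduction and the cell population of a line cannot be told apart. The study's methods describe no second Y634F line.

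AXL belongs with TYRO3 and MERTK to the TAM receptors, which bind the ligand GAS6 and phosphorylate tyrosines in their own intracellular part, where adaptor proteins then dock. Erlotinib inhibits EGFR, whose signal in PC9 cells runs largely through the ERK kinases, and AXL is known for carrying such cells through EGFR inhibition. A phenylalanine differs from tyrosine by the hydroxyl group that receives the phosphate, so a Y-to-F form cannot be phosphorylated at that residue.

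The 6 exchanged tyrosines are shown on the reference coding sequence of AXL (transcript AXL-201 of GENCODE 29, 894 codons, chromosome 19 of GRCh38, plus strand), since the panel is defined by them. The tyrosine codon stands in capitals with 12 bases on either side, and the codon that encodes phenylalanine in the constructs is not given in the sources used here.
Y634: agcttcctcctcTATtcccggctcggg
Y643: gaccagccagtgTACctgcccactcag
Y698: tccaagaagatcTACaatggggactac
Y726: gctgaccgtgtcTACaccagcaagagc
Y750: ggccaaaccccaTATccgggcgtggag
Y821: gacgaaatcctcTATgtcaacatggat
The codon of Y634 lies at chr19:41252941-41252943 in exon 16 of 20, and that of Y643 lies in exon 17 at chr19:41253599-41253601. The codons of Y698 and Y726 lie in exon 18, that of Y750 in exon 19 and that of Y821 in the last exon. The deposited values are abundances per transcript, in TPM, a unit scaled to the same total in every library, and do not show which base a line carries, so the Y634F label could not be checked by sequence.

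Epithelial genes, which mark the labelled cell type, were abundant. The 7 epithelial markers summed to 8800 TPM in the untreated, 11200 TPM in the E and 10400 TPM in the EA library of Y634F, with the keratin KRT7 the most abundant. The T cell genes CD3D and CD3E, the B cell gene MS4A1 and the fibroblast collagen COL3A1 were listed at 0 TPM in all 3 Y634F libraries, and the 5 endothelial markers summed to 5.12 to 6.74 TPM. Of 9 immune markers, CD68 and ITGAM were above 1 TPM. Among lung lineage genes, the surfactant genes SFTPA2 and SFTPC were listed at 0 TPM and the lung transcription factor gene NKX2-1 reached 0.354 TPM. Other members of that list were present, with SCGB3A2, a secretoglobin of the airways, at 22.6, 41.9 and 54.8 TPM, FOXA1, a transcription factor of many epithelia, at 38.7, 23.4 and 22.7 TPM, LAMP3 at 13.8, 8.21 and 8.98 TPM and CEACAM6 at 79.0, 9.93 and 13.5 TPM.

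AXL RNA of the Y634F line lay inside the range of the other lines. It was 273 TPM untreated, 488 TPM in E and 437 TPM in EA, against a lowest, median and highest of 217, 323 and 428 TPM in the 6 untreated lines, 408, 612 and 852 TPM in E, and 338, 542 and 849 TPM in EA. The line means differed by -0.32 ± 0.31 (SE) on the log2(TPM + 1) scale, with a 95% interval from -0.99 to 0.36. These values sum RNA from the disrupted gene and from the vector. Neither the share of cells that carry the vector nor a lower level per cell can be read from bulk RNA, where fewer cells of a type and less RNA per cell cannot be told apart.

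GAS6, the ligand, stood at 39.5, 76.1 and 69.3 TPM in the untreated, E and EA libraries of Y634F, and the 6 lines reached at most 41.0, 74.8 and 67.4 TPM, so that Y634F was the highest in both erlotinib treatments. Its difference of 0.16 ± 0.10 (SE) had an interval that holds 0, from -0.07 to 0.39. TYRO3 (20.2, 14.8 and 13.1 TPM), EGFR (175, 132 and 135 TPM), PTK2, which encodes the focal adhesion kinase FAK1 (83.0, 78.3 and 76.8 TPM), and YAP1, a transcriptional co-activator (91.6, 92.0 and 89.5 TPM), each lay inside the range of the 6 lines in all 3 treatments. The largest of these 4 differences was 0.12 ± 0.12 (SE) for TYRO3. MERTK stayed below 3.5 TPM in all 21 libraries and was not tested.

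To ask which genes set the line apart, the mean of log2(TPM + 1) over the 3 treatments was taken for each line, and Y634F was compared with the 6 lines for the 9085 genes that averaged 10 TPM or more, by limma with Benjamini-Hochberg adjustment over all of them. No gene passed an adjusted p of 0.05 (0% of the genes tested). At an unadjusted p under 0.05 there were 406 genes, 4.47% of those tested, of which 291 were higher and 115 lower in Y634F. The lowest adjusted p was 0.159. The standard error of a difference had a median of 0.097, and with 1 line against 6 an exact permutation test of a single gene cannot go below p = 0.143. The p-values measure the spread between single lines. Fold changes below are on the log2(TPM + 1) scale, which understates changes of low genes, and a gene is described without a verb of change because none passed.

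Within single treatments, 1 gene was called in the untreated libraries (0.0110% of genes), none in E (0%), and 1 in EA (0.0110%), by limma in the same way. The untreated call was ENSG00000256514, a readthrough gene model on chromosome 11 that overlaps CLCF1, POLD4 and RAD9A. It was listed at 0.594 TPM in untreated Y634F against 14.2 to 35.1 TPM in the 6 lines, and at 34.0 and 33.0 TPM in E and EA, whereas POLD4 was 93.0 TPM in untreated Y634F and 60.9 to 87.3 TPM in the others. The EA call was GTF2H4, a subunit of the transcription and repair factor TFIIH on chromosome 6, at 2.69 TPM in Y634F against 11.9 to 19.1 TPM. Transcripts of GTF2H4 are also annotated on alternative versions of that chromosome region, and with these added the EA values were 27.4 TPM in Y634F and 24.3 to 38.8 TPM in the 6 lines. The unadjusted counts were 591 genes untreated, 397 in E and 174 in EA.

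A plain description of how far the line stood apart is the number of genes at which it was above, or below, all 6 other lines in each of the 3 treatments. Y634F was above the 6 lines for 111 genes (1.22% of 9085) and below them for 52 (0.572%). With the kinase-dead line added to the 6, the counts were 101 above and 27 below. Counted in the same way, the other lines had from 47 genes (Y698F) to 334 genes (Y643F) outside the range, and WT had 203, so the 163 genes of Y634F lay within what single lines of the panel show. Median absolute differences told the same, at 0.070 for Y634F and 0.054 to 0.091 for the others. The direction depended on the scaling, since 68.1% of these genes were high as deposited but 43.9% after the library medians were set equal, when 76 were above and 97 below, and 47.8% after quantile normalization. The median difference of all genes was 0.02.

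**Figure D1:**
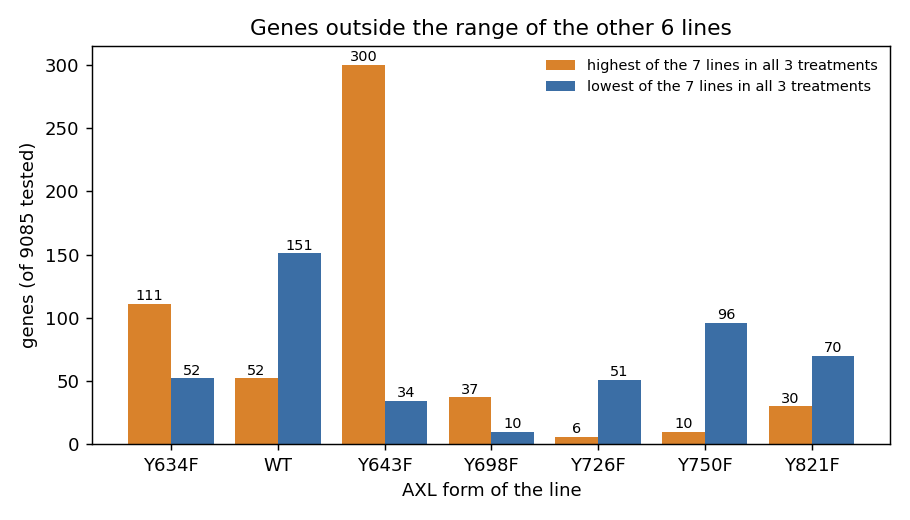
Number of genes, of 9085 tested, at which each of the 7 lines was the highest (orange bars) or the lowest (blue bars) in all 3 treatments. Y634F has 111 and 52 genes, fewer in sum than Y643F and WT and more than the other 4 lines.

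The 5 genes with the largest differences among the 111 high ones were LRRN1, IGFBP7, CCDC183, CD40 and HEATR5A. LRRN1, a transmembrane protein with leucine-rich repeats (chr3:3799437-3847703, plus strand), was 3.84, 28.8 and 24.7 TPM in the untreated, E and EA libraries of Y634F. In the 6 lines its lowest, median and highest values were 0.543, 0.927 and 2.0 TPM untreated, 9.62, 13.3 and 23.8 TPM in E, and 9.85, 11.8 and 21.5 TPM in EA. The level was thus low in all 7 untreated lines and the Y634F library was above the rest each time, by 1.05 ± 0.28 (SE) on average, or 2.07-fold, with an adjusted p of 0.938 in limma. Y643F was the next highest line in all 3 treatments.

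IGFBP7, a secreted protein that binds insulin-like growth factors (chr4:57030773-57110385, minus strand), was 35.7, 48.0 and 42.4 TPM in Y634F. The 6 lines had 19, 24.0 and 32.5 TPM (lowest, median and highest) untreated, 22.1, 27.1 and 36.9 TPM in E, and 19.6, 26.2 and 31.8 TPM in EA. The difference was 0.67 ± 0.18 (SE), 1.59-fold, with WT next and Y821F lowest in each treatment. Parental PC9 cells, which were neither knocked out nor transduced, had 43.1, 37.6 and 38.1 TPM, so that the Y634F values were not above those of the parent throughout. CD40, a receptor of the tumour necrosis factor family (chr20:46118272-46129863, plus strand), was 20.3, 18 and 19.2 TPM against highest values of 20.1, 13.9 and 16.8 TPM, a difference of 0.52 ± 0.18 (SE). CCDC183 (chr9:136796350-136807741, plus strand) was 12, 21.2 and 19.9 TPM against at most 11.8, 17.6 and 18.8 TPM. HEATR5A (chr14:31291791-31420582, minus strand) was 17.7, 16.6 and 26.0 TPM against at most 17.6, 16.3 and 15.9 TPM, with differences of 0.27 untreated, 0.38 in E and 0.83 in EA. It lay clear of the others in EA but barely above them otherwise, and it left the set when library medians were set equal.

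Among the 52 low genes the largest differences were those of RNA5SP187, ARL14EP, SMARCA2, SPOPL and CCNG1. RNA5SP187 is a 5S ribosomal RNA pseudogene, one of many near-identical copies, and its value is uncertain. ARL14EP, an effector of the small GTPase ARL14 (chr11:30323051-30338227, plus strand), was 34.1, 30.1 and 40.4 TPM in Y634F. In the 6 lines the lowest, median and highest values were 41.6, 46.3 and 49.3 TPM untreated, 42.5, 49.4 and 63.0 TPM in E, and 45.9, 51.4 and 54.8 TPM in EA. The groups did not overlap, the difference was -0.49 ± 0.07 (SE) with an interval from -0.65 to -0.33, and its adjusted p of 0.159 in limma was the lowest of the 9085 genes, shared with ENSG00000256514, whose line mean differed by -1.46 ± 0.22 (SE). Parental cells had 27.4, 22.0 and 28.8 TPM, below every transduced line named here.

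CCNG1, which encodes cyclin G1, a p53 target (chr5:163437569-163446151, plus strand), was 34.7, 35.7 and 39.9 TPM against at least 41.3, 40.7 and 40.8 TPM in the 6 lines, a difference of -0.32 ± 0.08 (SE). SMARCA2, an ATPase of the SWI/SNF chromatin remodelling complex (chr9:1980290-2193624, plus strand), was 22.5, 19.9 and 19.1 TPM against at least 22.8, 21.3 and 25.0 TPM, a difference of -0.40 ± 0.11 (SE). In each gene 1 library came close to the lowest other line, EA for CCNG1 and untreated for SMARCA2. SPOPL, a ubiquitin ligase adaptor (chr2:138501801-138573547, plus strand), was 11.1, 10.7 and 11.4 TPM against at least 12.2, 10.9 and 13.1 TPM.

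**Figure D2:**
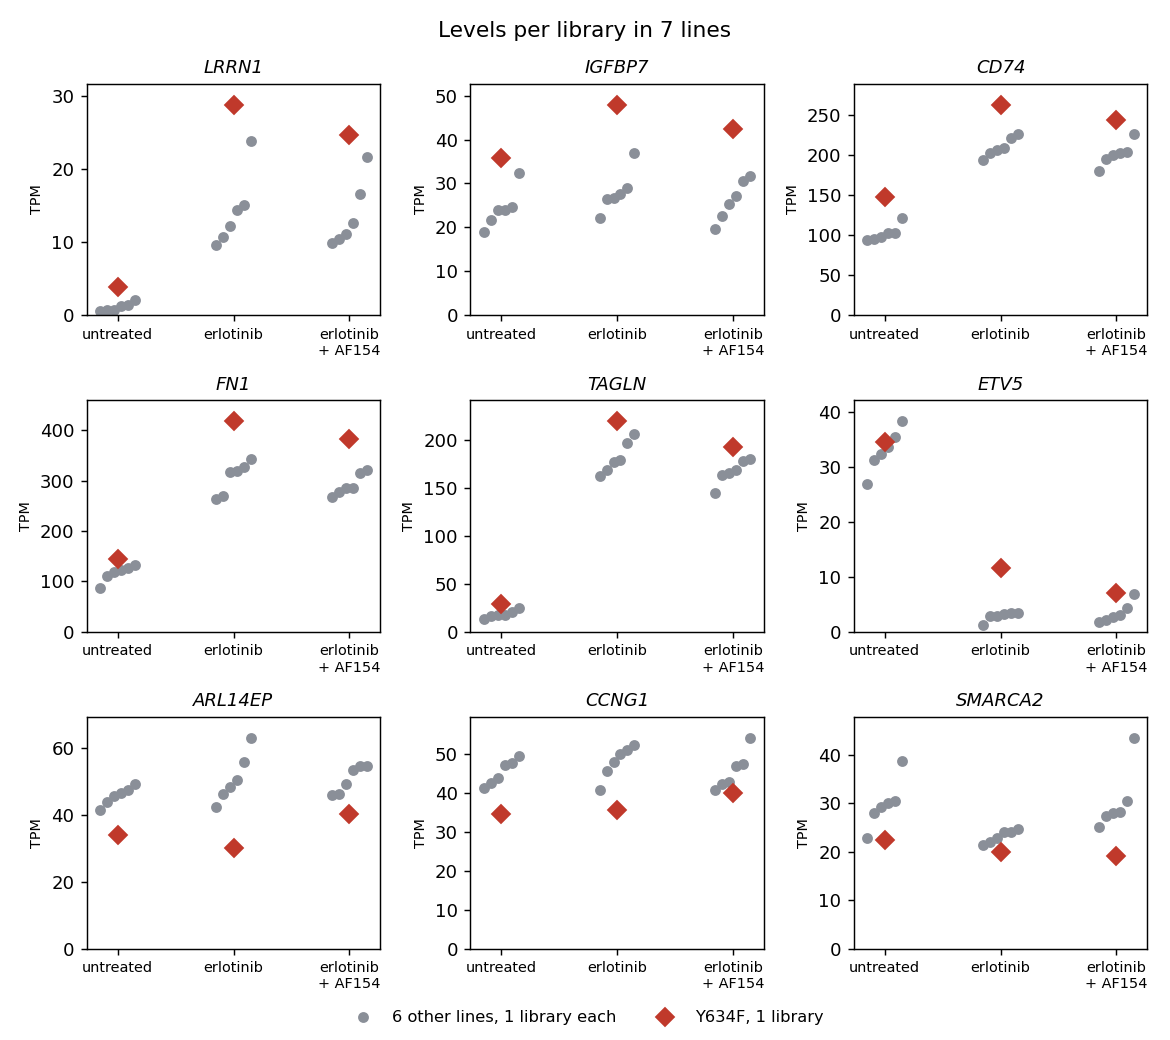
TPM of 9 genes in each of 21 libraries (y axis, from 0) by treatment (x axis). Red diamonds are the single Y634F library and grey points the 6 other lines, ordered by value. In LRRN1, IGFBP7, CD74, FN1 and TAGLN the diamond lies above all grey points in each treatment, in ARL14EP, CCNG1 and SMARCA2 below them, and in ETV5 above them in both erlotinib treatments but not untreated.

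Genes of the mesenchymal list, which holds extracellular matrix and contractile genes used to follow epithelial-to-mesenchymal transition, stood high in the Y634F line. Of the 30 listed genes 17 passed the filter on low values, none was called in the comparison of line means, 16 of the 17 were higher than the mean of the 6 lines, as were 57.9% of all genes tested, and their median difference was 0.24 beside 0.02 for all genes. The mean level of the 17 genes was 7.12 on the log2(TPM + 1) scale in Y634F and 6.76 to 6.94 in the 6 lines. In single treatments it was 6.36 against at most 6.19 untreated, 7.52 against at most 7.39 in E, and 7.48 against at most 7.35 in EA. The values were higher in E than untreated in all 7 lines, and the erlotinib change of the list, 1.16, lay inside the range of 1.11 to 1.28.

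5 of the 17 tested members of this list were above all 6 lines in each treatment, beside 1.22% of all genes (they and the other list members named below were chosen after their values were seen). FN1, fibronectin, was 145, 418 and 382 TPM in Y634F, while the 6 lines had 86.2, 120 and 132 TPM untreated, 264, 318 and 343 TPM in E and 268, 286 and 321 TPM in EA (lowest, median and highest). Its difference was 0.39 ± 0.10 (SE), 1.31-fold. TAGLN, the actin-binding protein transgelin, was 29.4, 219 and 192 TPM against at most 25.1, 206 and 180 TPM, a difference of 0.39 ± 0.11 (SE). TGFBI, a matrix protein induced by TGF-beta, was 954, 1225 and 1236 TPM against at most 885, 1079 and 1125 TPM, a difference of 0.34 ± 0.10 (SE). THBS1, thrombospondin 1, was 354, 681 and 649 TPM against at most 321, 624 and 609 TPM, a difference of 0.24 ± 0.06 (SE). VIM, vimentin, was 44.8, 30.5 and 31.6 TPM against at most 44.0, 30.3 and 26.4 TPM, with a small margin untreated and in E, and it left the set under both other scalings. The 7 fibroblast markers summed to 36.6, 62.6 and 67.1 TPM in Y634F, against 24.0 to 29.1 TPM untreated, 53.4 to 60.8 TPM in E and 35.8 to 73.2 TPM in EA. COL1A1, a collagen that the mesenchymal list also holds, was the most abundant at 36.0, 59.9 and 64.9 TPM, while 5 of the 7, among them COL1A2, DCN and PDGFRA, stayed under 1 TPM and COL3A1 was at 0.

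The TGF-beta response list has members in common with the mesenchymal one, TGFBI among them. Of its 19 tested members none was called, 18 were higher in Y634F, and the median difference was 0.10. PMEPA1, a feedback inhibitor of TGF-beta signalling, was 516, 525 and 479 TPM against at most 441, 519 and 479 TPM. It was therefore clear of the other lines only when untreated.

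In the lists of inflammatory and immune genes most members had higher mean levels in Y634F, again with none called. The inflammatory and NF-kappaB list had 14 of 17 tested members higher, with a median difference of 0.15, but its mean level of 5.38 lay inside the range of 5.10 to 5.42. CSF1, the macrophage colony-stimulating factor, was 38.1, 38.6 and 40.8 TPM against at most 36.5, 37.3 and 37.9 TPM. The antigen presentation list had 10 of 13 tested members higher and a median of 0.11 (0.27 untreated, 0.12 in E and 0.04 in EA), and its mean level of 5.47 was inside the range of 5.23 to 5.54. CD74, the invariant chain of MHC class II, was 148, 264 and 244 TPM in Y634F, while the 6 lines had 93.7, 100 and 122 TPM untreated, 194, 208 and 226 TPM in E and 180, 202 and 227 TPM in EA. The groups did not overlap, with a difference of 0.38 ± 0.08 (SE), or 1.30-fold. Parental cells had only 8.22, 28.6 and 29.3 TPM of CD74. HLA-C, a class I molecule, was 282, 391.6 and 363 TPM against at most 279, 382 and 359 TPM, and it left the set once its annotated copies on alternative sequences were added. The interferon-stimulated list had 14 of 16 tested members higher, with a median of 0.09, and its mean level was inside the range.

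In the lists of mitosis, of the NRF2 antioxidant programme and of the mitochondrial genome most members had lower mean levels in Y634F, and none was called. Of 29 tested mitosis genes 4 were higher in Y634F and 25 lower, the median difference was -0.09, and the mean level was 5.77 against 5.80 to 5.94 in the 6 lines. In the untreated libraries it was 6.43 against 6.50 to 6.65, below the 6 lines, while with erlotinib (5.29 against 5.28 to 5.50) and with erlotinib and AF154 (5.59 against 5.55 to 5.76) it was inside their range. BUB1, a kinase of the spindle checkpoint, was 53.1, 21 and 28.0 TPM against at least 59.8, 22.8 and 30.0 TPM, and NUSAP1, a spindle protein, was 117, 59.2 and 72.5 TPM against at least 122, 60.4 and 74.7 TPM. Both left the set when the kinase-dead line was added to the 6 (22.8 TPM of BUB1 and 56.7 TPM of NUSAP1 in its EA library), and NUSAP1 also under both other scalings. The G1/S and replication list, which covers the preceding phase of the cycle, had 16 of 25 members higher, a share near the 57.9% of all genes, and a median of 0.05, or 0.02 under both other scalings. Of 30 NRF2 genes 20 were lower with a median of -0.03 (-0.06 with equal medians), but the mean level of 8.04 was inside the range of 8.0 to 8.12. 3 of them, beside 0.572% of all genes, lay below the 6 lines in each treatment: GCLC, the catalytic subunit that makes the precursor of glutathione, UGDH, UDP-glucose dehydrogenase, and GPX2, a glutathione peroxidase, which was 234, 237 and 260 TPM against at least 244, 253 and 273 TPM. The kinase-dead line, which is not among the 6, was lower than Y634F for GCLC untreated (84.0 against 97.7 TPM) and for UGDH in EA (36.9 against 37.7 TPM). All 13 genes encoded in mitochondrial DNA were lower, with a median of -0.13 (-0.08 after quantile normalization), but MT-CO2 turned higher after quantile normalization. They took 11.4% of TPM in untreated Y634F, below the 11.9% to 14.2% of the 6 lines, 12.3% in E, where the lowest other line also had 12.3%, and 13.3% in EA, inside 12.9% to 17.4%. Since TPM has a fixed total, a smaller mitochondrial share raises all other values. Without these genes, when 9601 genes passed the filter in place of 9085, the counts outside the range were 87 above and 79 below.

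**Figure D3:**
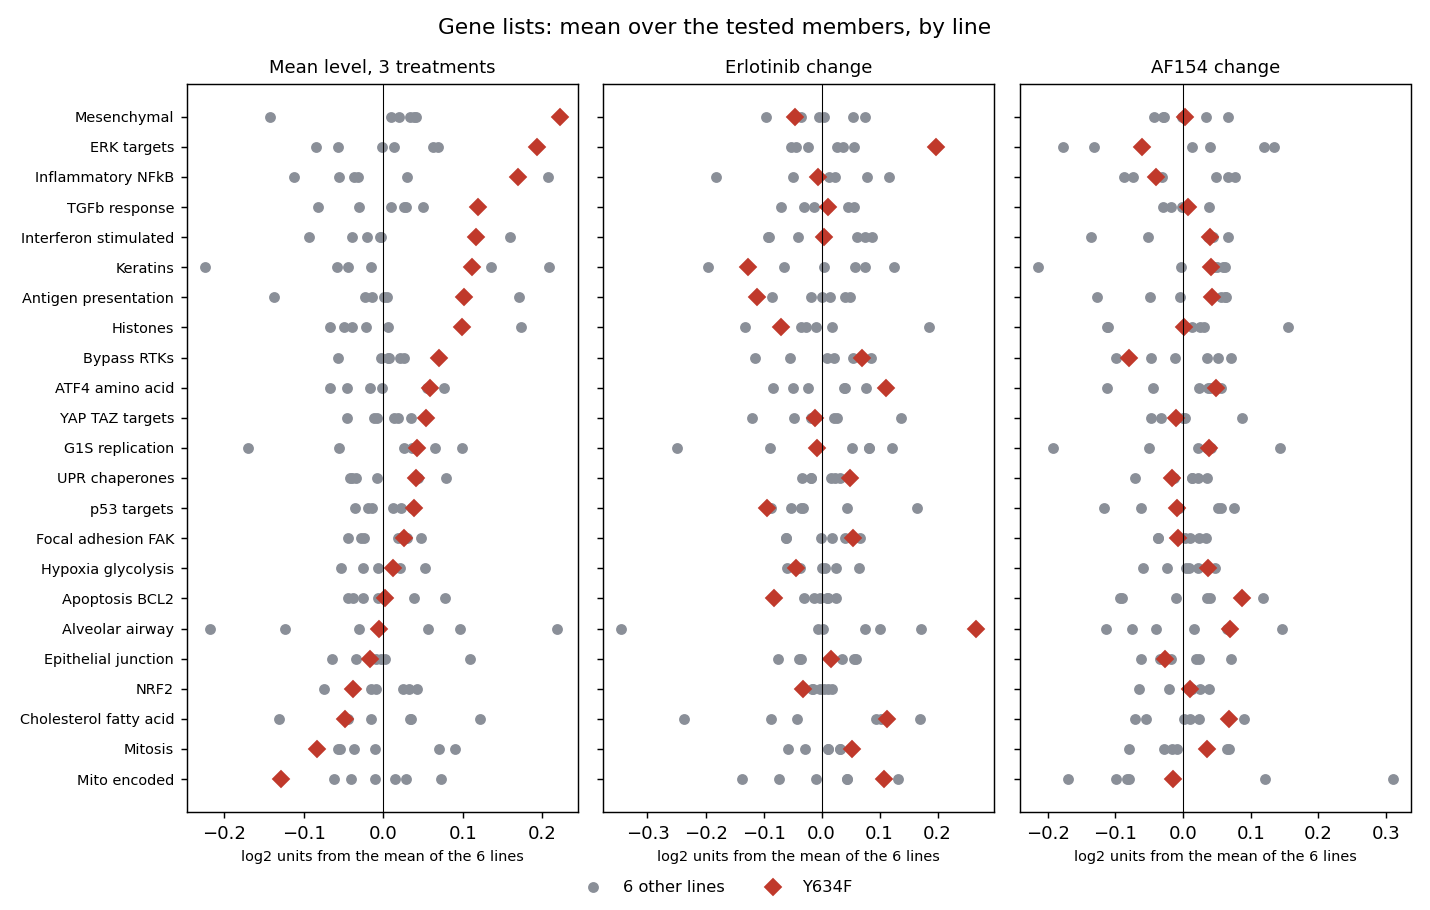
Mean over the tested members of each gene list, by line, as the distance from the mean of the 6 other lines in log2 units. The left panel shows levels over 3 treatments, the middle panel the erlotinib change and the right panel the AF154 change, with red diamonds for Y634F and grey points for the 6 lines. In the left panel the mesenchymal, ERK target and TGF-beta lists lie clear of and above all grey points, the mitosis and mitochondrial lists below them. In the middle panel the ERK target list stands apart, though without ETV5 its change lay inside the range.

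Of the remaining lists, none had a member called. YAP and TAZ targets had 12 of 20 tested members higher (median 0.07), focal adhesion and FAK genes 15 of 27 (0.03), epithelial junction genes 12 of 30 (-0.02), keratins 7 of 11 (0.06), alternative receptor tyrosine kinases 9 of 13 (0.04), apoptosis and BCL2 genes 13 of 23 (0.02, which turned below 0 with equal medians or quantile normalization) and p53 targets 10 of 15 (0.02). Among the stress and metabolic lists, ATF4 and amino acid genes had 19 of 23 members higher (0.05), chaperones 16 of 23 (0.03), hypoxia and glycolysis genes 12 of 26 (-0.01), cholesterol and fatty acid synthesis genes 6 of 29 (-0.04) and histones 15 of 16 (0.07). Of the 4 lung lineage genes tested 2 were higher (-0.01). Some of these medians differed in sign between single treatments. In the untreated, E and EA libraries they were -0.23, 0.05 and 0.15 for lung lineage genes, -0.17, -0.03 and 0.02 for cholesterol genes and -0.02, 0.06 and 0.06 for ATF4 genes. Those of apoptosis and hypoxia genes also crossed 0, within -0.01 to 0.06 and -0.02 to 0.000754. With equal medians those of ATF4, hypoxia, cholesterol and lung lineage genes were 0.03, -0.03, -0.06 and -0.04. The median over all 9085 genes was 0.02, and 57.9% of them were higher. With equal medians or quantile normalization the medians of focal adhesion, p53 and chaperone genes came closer to 0. By mean level, YAP and TAZ targets (5.89 against 5.79 to 5.87), alternative receptor kinases (5.61 against 5.49 to 5.57) and p53 targets (4.86 against 4.78 to 4.85) also lay just above the 6 lines.

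Erlotinib changes were compared by subtracting the untreated from the E library of each line. No gene passed in limma (0% of 9085), 383 did at an unadjusted p under 0.05, and the median standard error was 0.171, larger than for levels because each change rests on 2 libraries. The erlotinib change of Y634F lay above that of the 6 lines for 1178 genes (13.0%) and below it for 1139 (12.5%). The size of the response lay inside the panel, with 1108 genes apart by at least 1 log2 unit between E and untreated in Y634F and 1082 to 1344 in the other lines.

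ERK targets are genes that follow ERK activity and mostly fall when EGFR is inhibited. As a list mean they lay lower in E than untreated by a smaller amount in Y634F. Not every member was lower in E. The change of EPHA4 was 0.743 in Y634F and 0.665 to 1.94 in the 6 lines, and that of IER2 was -0.118 and -0.155 to 0.277. The mean change of the 16 tested members was -1.41 in Y634F and -1.66 to -1.55 in the 6 lines. No member was called in any comparison. ETV5, a transcription factor gene induced by ERK, weighed most in this mean. Without it the change was -1.40, inside the range of -1.57 to -1.39, and without ETV4 as well it was -1.30 against -1.44 to -1.25. ETV5 was 34.5 TPM in untreated Y634F, inside the range of 26.9 to 38.4 TPM. In E it was 11.6 TPM where the 6 lines had 1.32, 3.06 and 3.47 TPM (lowest, median and highest), and in EA 7.17 TPM against 1.83, 2.87 and 6.86 TPM. The E library thus stood far from the other lines and the EA library just above the highest. The erlotinib change was -1.50 in Y634F and -4.08 to -2.64 in the others, a difference of 1.67 ± 0.47 (SE) with an interval from 0.61 to 2.73 and an adjusted p of 0.999 in limma. Its paralogue ETV4 was 69.8 TPM untreated, inside 63.2 to 72.0 TPM, and 8.62 TPM in E and 9.24 TPM in EA, above the 6 lines at 3.59 to 5.75 TPM and 3.49 to 7.76 TPM.

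Of the 16 tested ERK targets, 5 had an erlotinib change above that of all 6 lines, beside 13.0% of all genes tested, and 1 had a change below it, beside 12.5% (SPRED2, -2.14 against -2.06 to -1.76). Besides ETV5 and ETV4 these were DUSP4, a phosphatase of the ERK pathway (-2.02 against -2.48 to -2.27), EMP1, a membrane protein (-1.75 against -2.41 to -2.04), and PHLDA1, a pleckstrin homology protein (-2.90 against -3.34 to -2.97). The margin of PHLDA1 was small, and its levels of 26.5, 2.68 and 3.13 TPM were inside the range in all 3 treatments. EPHA2, a receptor kinase, was 60.5, 18.2 and 19.3 TPM in Y634F against at most 58.4, 16.8 and 16.4 TPM, above the range also without drug, and its change of -1.68 lay inside -2.17 to -1.67. The ERK feedback genes DUSP6 and SPRY4 were under the filter. In untreated, E and EA Y634F, DUSP6 was 11.7, 0.988 and 0.581 TPM. The 6 lines had 8.73 to 16.8, 0.412 to 0.924 and 0.336 to 1.40 TPM. SPRY4 was 9.56, 0.646 and 0.662 TPM in Y634F, and 9.46 to 12.8, 0.0747 to 0.680 and 0.115 to 0.988 TPM in the 6 lines. DUSP6 was thus above the range in E alone, and SPRY4 was inside it throughout. In levels over the 3 treatments all 16 tested ERK targets were higher in Y634F, with a median difference of 0.11 and a mean of 5.05 against 4.77 to 4.92. Without ETV5 the mean was 5.12 against 4.89 to 5.04, so the level of the list, unlike its erlotinib change, stayed above the 6 lines.

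The genes whose erlotinib change lay farthest above the 6 lines included ENSG00000256514, ETV5, TRBJ2-7 and NPAS2. NPAS2, a clock transcription factor, was 43.7 TPM untreated against 57.4 to 77.2 TPM and 33.8 TPM in E against 20.4 to 29.9 TPM. The untreated library was thus below and the E library above all others, with a difference of 1.14 ± 0.18 (SE) in the change. Its EA value, 27.7 TPM, was inside the range. The value of TRBJ2-7, a T cell receptor joining segment much shorter than a sequencing fragment, is uncertain.

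The 6 genes farthest below the range were RPS9, RGPD5, H4C16, ZNF778, a POLR2J3 gene model and METRNL. RPS9 and METRNL are also annotated on alternative sequences. With these copies added the erlotinib change of RPS9 was -0.04 in place of -1.26, still below 0.24 to 0.73 in the 6 lines, and that of METRNL, a secreted protein, was 0.58 in place of -0.14, against 0.73 to 1.1. RGPD5, POLR2J3 and the histone gene H4C16 belong to families of near-identical copies, and ZNF778 was 23.9 TPM untreated and 8.83 TPM in E, against 9.96 to 20.6 TPM and 9.38 to 21.7 TPM.

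AF154 changes were taken as the EA minus the E library, the comparison that asks what AXL activation adds while EGFR is inhibited. No gene passed in limma (0% of 9085), 297 did at an unadjusted p under 0.05, and the median standard error was 0.175. Y634F lay above the 6 lines for 1088 genes (12%) and below them for 862 (9.49%). The response was small in all lines, with 26 genes apart by at least 1 log2 unit between EA and E in Y634F and 21 to 77 in the others. The E library enters this comparison and the erlotinib change, so a library value that is off moves them in opposite directions. ZNF778 was among the 6 lowest for erlotinib and the 6 highest for AF154.

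On the high side were ATF6B, ZNF778, SAMD5, TESMIN, LRP8 and AGO2. LRP8, a lipoprotein and reelin receptor (chr1:53242364-53328070, minus strand), was 30.2 TPM in untreated Y634F, 4.26 TPM in E and 11.1 TPM in EA. The 6 lines had 33.9, 37.1 and 43.1 TPM untreated, 4.30, 6.04 and 8.67 TPM in E, and 6.73, 8.71 and 11.6 TPM in EA (lowest, median and highest). Y634F was thus the lowest line untreated and in E, and inside the range in EA. The AF154 change was 1.21 against 0.21 to 0.59, and the difference of 0.82 ± 0.21 (SE) had an interval from 0.34 to 1.30 and an adjusted p of 1 in limma. In the kinase-dead AXL line the E and EA libraries had 3.83 and 3.72 TPM, and in parental cells 4.11 and 7.14 TPM.

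AGO2, the Argonaute protein that cuts targets of small RNAs, was 16.9 TPM in E, below the 18 to 25.1 TPM of the 6 lines, and 30.3 TPM in EA, above 18.7 to 24.8 TPM. Its change was 0.80 against -0.02 to 0.19. SAMD5 was 42.2 TPM in E against 51.0 to 78.9 TPM and 75.4 TPM in EA against 39.0 to 73.0 TPM, and TESMIN, a metallothionein-like protein of the testis, was 22.7 TPM in E against 23.9 to 30.7 TPM and 39.1 TPM in EA against 20.2 to 28.7 TPM. In these 3 genes the order reversed between single libraries. ATF6B turned from 0.83, above the range, to -0.12, below the range of -0.01 to 0.19, once its copies on alternative sequences were added.

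On the low side were the pseudogenes ENSG00000271365 and ZNF29P, the joining segment TRBJ2-7, POLR1H, GTF2H4 and BBIP1. POLR1H, a subunit of RNA polymerase I, and GTF2H4 had changes of -2.70 and -2.42 on the primary sequence, and -0.03 and -0.31 with copies added, inside the ranges of -0.44 to 0.06 and -0.42 to 0.55. BBIP1, a subunit of the BBSome of cilia, was 17.1 TPM in E against 7.70 to 14 TPM and 9.32 TPM in EA against 11.4 to 15.9 TPM.

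**Figure D4:**
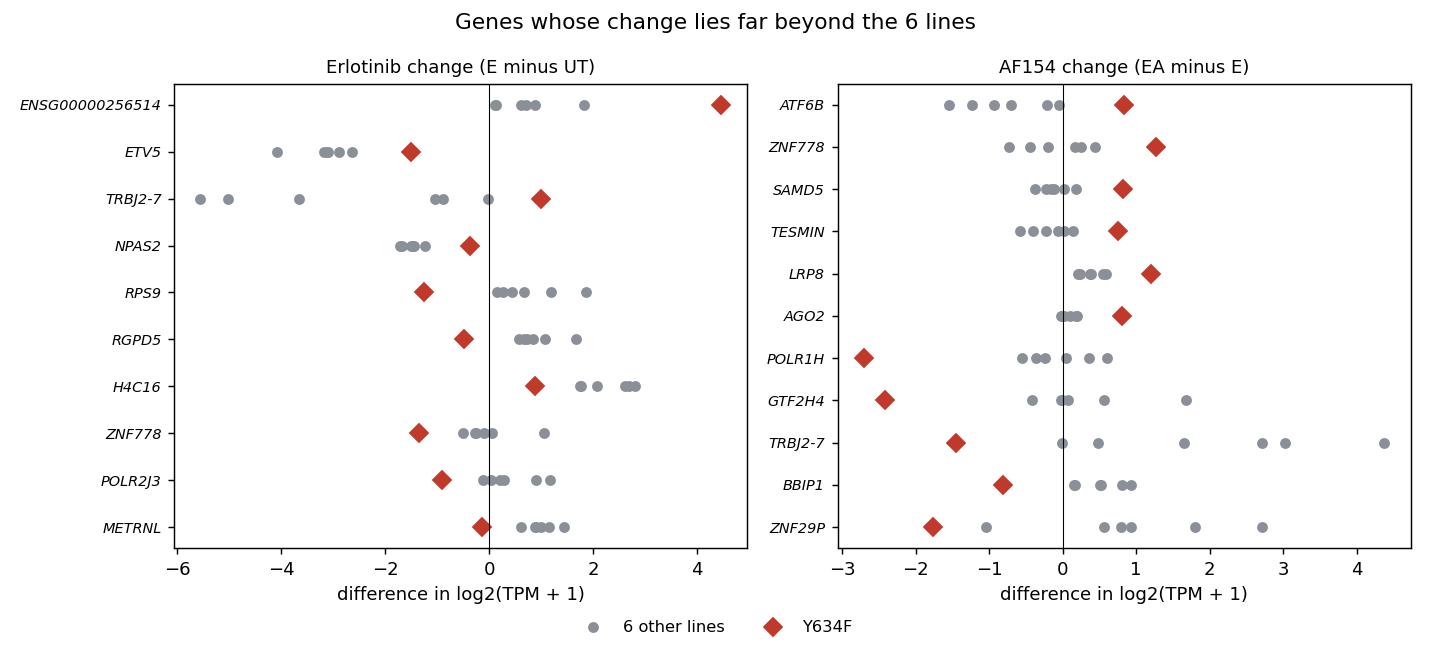
Change in log2(TPM + 1) of genes far beyond the range of the 6 lines (grey points), with Y634F in red; left, E minus UT, 10 genes, and right, EA minus E, 11 genes. ETV5 lies at -1.50 in Y634F and no higher than -2.64 in the other lines, and LRP8 lies at 1.21 against at most 0.59.

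Among lists, the AF154 change of Y634F was inside the range of the 6 lines for ERK targets (-0.02, range -0.14 to 0.17), YAP and TAZ targets (-0.02, range -0.06 to 0.08), focal adhesion genes (0.01, range -0.02 to 0.05), mitosis genes (0.30, range 0.19 to 0.34) and G1/S genes (0.35, range 0.12 to 0.46). For erlotinib, G1/S genes (-1.97, range -2.21 to -1.84) and YAP and TAZ targets (0.47, range 0.36 to 0.62) were inside as well. Apoptosis and BCL2 genes (0.19, range 0.25 to 0.30), NRF2 genes (0.19, range 0.21 to 0.24) and antigen presentation genes (0.29, range 0.32 to 0.45) were below all 6 lines, while mitosis genes (-1.14, range -1.25 to -1.16) and ATF4 genes (-0.31, range -0.51 to -0.35) were just above them. So were chaperones (-0.29, range -0.37 to -0.31) and the 4 lung lineage genes (-0.09, range -0.71 to -0.19), and p53 targets were just below (0.07, range 0.08 to 0.33). The mean of the 7 epithelial markers was above (0.484, range 0.285 to 0.403), though 1 of the 7, CDH1 or E-cadherin, was itself above the 6 lines (0.964, range 0.57 to 0.886) and MUC1, with the largest change, was inside (2.34, range 1.29 to 2.52), and COL1A1, the 1 fibroblast marker tested, was below (0.72, range 0.89 to 1.3). No member of these lists was called for either change. Of all genes tested, 13.0% had an erlotinib change in Y634F above the 6 lines and 12.5% a change below them. How often a list mean lies outside the other lines was not tested.

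The genes outside the range were unevenly spread over the genome, a pattern noticed after the values were seen. Chromosome 9 held 4.01% of the genes tested and 14 of the 52 low genes (26.9%), among them SMARCA2, RPS6, CAAP1, PLAA, ACO1, NAA35, GAPVD1 and FNBP1. Of its 364 tested genes 70.3% were lower in Y634F, beside 42.1% of all genes, and their median difference was -0.06, with -0.05, -0.05 and -0.06 in the untreated, E and EA libraries. Before position 40000000, 82.3% of 79 genes were lower with a median of -0.11, and after it 67.0% of 285 genes with a median of -0.04. The medians of Y643F had the same order, -0.057 before that position and -0.0267 after it. Y643F had the lowest chromosome 9 median of the other 6 lines, -0.04, and Y698F the highest, 0.06. Chromosome 3, with 5.86% of the genes, held 20 of the 111 high ones (18%), including LRRN1, COL7A1 and MAP4, and its median was 0.07 in Y634F but 0.11 in Y643F. Chromosome 6, with 4.35%, held 8 of the 52 low genes (15.4%), among them HSP90AB1, E2F3 and GCLC, with a median of -0.04. Chromosome 19, with 7.28% of the genes, held 13 of the 111 high ones (11.7%), 22.5% of its genes were lower in Y634F, and its median was 0.06 against at most 0.03 in the 6 lines. Y634F also had the highest median on chromosomes 17 (0.0371 against at most 0.0343), 21 (0.0673 against 0.0596) and 22 (0.0505 against 0.0269). The order of the lines depended on the scaling. With library medians set equal, Y634F remained the lowest line on chromosome 6 (-0.0666 against at least -0.0149) and the highest on 21 (0.045 against at most 0.0286), but on chromosome 9 Y643F was lower (-0.106 against -0.0789), and on 17, 19 and 22 Y726F was higher (0.0343 against 0.0147, 0.049 against 0.0376 and 0.0431 against 0.0282). Y634F was then the lowest line also on chromosomes 2, 4, 5, 10, 12, 15 and 18. It was the highest also on 3 (0.0466 against at most 0.0397) and 20 (0.0332 against 0.031). A place at an end of the order was not particular to Y634F. WT was then the highest line on chromosomes 1, 2, 4, 5, 6, 7, 8, 10, 12, 14, 15, 16 and 18.

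**Figure D5:**
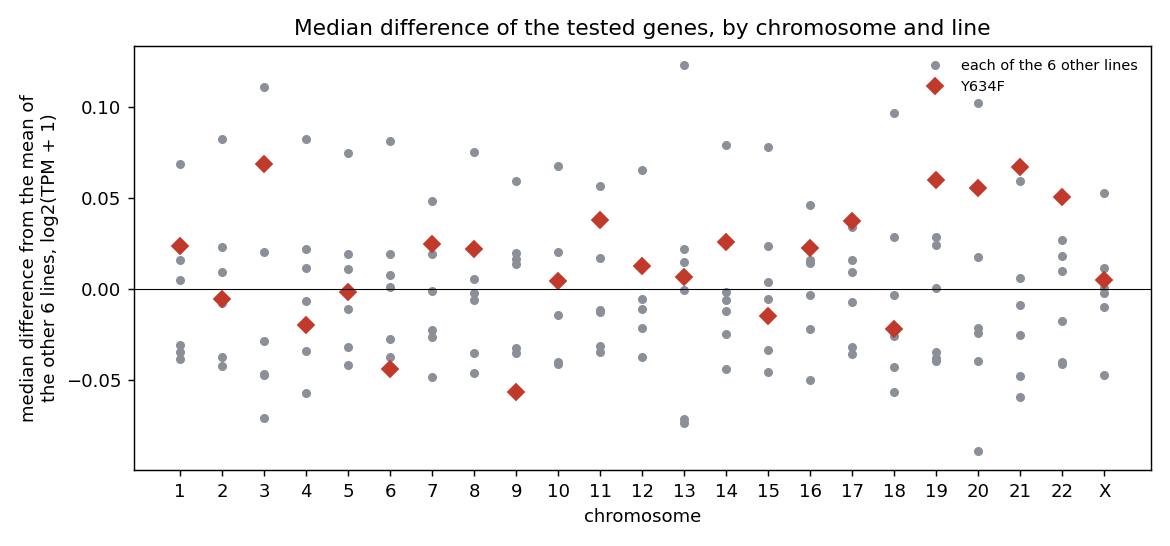
Median difference of the tested genes of each chromosome (x axis) between a line and the mean of the other 6 (y axis, log2(TPM + 1)), for Y634F (red) and the 6 other lines (grey). Y634F is the lowest line for chromosomes 6 and 9, at -0.04 and -0.06, and the highest for 17, 19, 21 and 22 as deposited (with equal library medians only 6 and 21 of these hold), and for chromosome 3 it lies at 0.07, below the highest line at 0.11.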

How the data were processed

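The authors deposited TPM per transcript for 29 libraries, and their processing notes name kallisto and GRCh38; the annotation, strand handling and read depth are not given in the sources used here. TPM keeps no depth, so no counting error could be given. Of 188753 transcripts, 169797 were matched to GENCODE 29 by identifier and summed into 35579 genes, which held 97.01% to 97.35% of TPM. Genes that averaged 10 TPM or more across the 29 libraries entered the fits, on the log2(TPM + 1) scale. Line means, and the E minus UT and EA minus E differences, were compared (Y634F against 6 lines) with limma 3.58.1 (lmFit, eBayes with trend, Benjamini-Hochberg), checked on simulated data. This replaced a fit with treatment as a block over 21 libraries, which treats libraries of a line as independent and was an alternative. Named genes were AXL and 7 fixed genes; up to 12 called genes in each direction outside the range, filled to 5 by size where fewer were called; the 6 changes farthest above and below the range; and up to 4 called members of each of 23 lists. Members and lists were chosen with earlier results of these data known. Alternatives covered the pseudocount, filters, scaling, the kinase-dead line, each line or treatment left out and the variance model. Some genes that this rule picks are not reported here.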

Additional observations from a re-analysis of the deposited data

Results flagged for a closer look

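Over the 7 lines, 96 sets of values were examined for a line far from the others (levels and changes of gene lists and of the fixed genes, and mitochondrial shares). 7 stood apart by Dixon's criterion, where chance alone gives about 1 in 20, or 4.8 of 96. Members and lists were chosen with earlier results of these data known, so that rate need not hold here. LRP8 was also among the genes picked for an AF154 change far above the range. For Y634F these were the erlotinib change of the ERK target list, at -1.41 against -1.66 to -1.55 in the 6 lines, and the AF154 change of LRP8, at 1.21 against 0.21 to 0.59. Without ETV5 the change of the ERK target list was -1.40, inside the range of -1.57 to -1.39. The remaining 5 belong to other lines. They are the AF154 change of YAP and TAZ targets in Y750F (0.0795, others -0.06 to 0.00), the level of epithelial junction genes in Y643F (6.07, others 5.90 to 5.97), the AF154 change of keratins in Y821F (-0.21, others 0.00 to 0.06), the erlotinib change of TYRO3 in Y643F (-1.21, others -0.52 to -0.30) and the mitochondrial share of the Y821F EA library (17.4% of TPM, others 12.9% to 14.4%). Causes were not tested.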

How the results depend on the processing

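No gene was called for levels, erlotinib changes or AF154 changes under the other settings tried, apart from these. Keeping every gene above 0 TPM in any library, which lets in genes near 0, gave 215, 302 and 269 calls and 251 genes outside the range. With a pseudocount of 0.1, 2 levels were called (ENSG00000256514 and ENSG00000271365). With a filter of 10 TPM in any library, 2 erlotinib changes were called (TRDJ1 and ENSG00000237137), and with a mean of at least 1 TPM, 1 AF154 change (RNA5SP179). With a line or treatment left out, called levels ranged from 0 to 1 (ENSG00000256514 without Y726F or the E libraries), called erlotinib changes from 0 to 1 (the same gene without Y821F) and genes outside the range from 202 to 808, the highest without the EA libraries, with 341 without Y643F. A range over fewer lines can only be narrower, and with a treatment left out a gene has fewer conditions to meet. The fits over 21 libraries with treatment as a block called 0 levels. Unadjusted counts ran from 237 to 1734 for levels, 319 to 1871 for erlotinib and 242 to 1681 for AF154. Of the 30 genes outside the range that were among the largest differences or were list members (LYN, IFI35, CALR and MT-ND4 are not described above), 20 remained so with equal medians, 23 of 30 with quantile normalization and 22 with the kinase-dead line added. HEATR5A, LYN, NUSAP1, IFI35, VIM, MT-ND4 and MT-CO2 left under both scalings, HLA-C, CALR and PMEPA1 with equal medians, and RNA5SP187, EPHA2, LYN, BUB1, NUSAP1, GCLC, UGDH and PMEPA1 with the kinase-dead line. 4 differences of named genes changed sign: LRP8, whose level difference ran from -0.389 without the EA libraries to 0.0201 without the E libraries, MT-CO2 with quantile normalization (0.0453), and, with copies on alternative sequences added (chosen after seeing the data), the AF154 changes of ATF6B (-0.20) and POLR1H (0.15). List medians moved by less than the spread between lines, but with equal medians and quantile normalization those of apoptosis and BCL2 genes (0.0154) and of epithelial markers (0.00636) turned to -0.00689 and -0.00774, and to -0.0159 and -0.00935. Of 24 list medians, 16 moved by over 1.5 times or changed sign under at least 1 of these scalings, and those of mesenchymal, TGF-beta, ERK target, inflammatory, interferon, antigen presentation, YAP and TAZ and mitosis genes moved by less. In the same order p53 targets went from 0.0249 to 0.00259 and 0.00054, chaperones from 0.0275 to 0.00515 and 0.0176, focal adhesion genes from 0.0275 to 0.0052 and 0.0115, histones from 0.0724 to 0.05 and 0.0212, alternative receptor kinases from 0.0415 to 0.0192 and 0.0244, G1/S genes from 0.0463 to 0.024 and 0.016, ATF4 genes from 0.0547 to 0.0324 and 0.0343, keratins from 0.0596 to 0.0373 and 0.0649, hypoxia genes from -0.00953 to -0.0318 and -0.0232, cholesterol genes from -0.0361 to -0.0584 and -0.0549, epithelial junction genes from -0.0183 to -0.0406 and -0.043, NRF2 genes from -0.0347 to -0.057 and -0.0488, lung lineage genes from -0.0128 to -0.0351 and -0.0299, and mitochondrial genes from -0.127 to -0.149 and -0.0809. No paired analysis was possible because no line and treatment has a second library, beyond the differences within each line and the fits with treatment as a block given above. Depth is not known from TPM, so the counting error of low genes could not be given.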
